A study of Rattus norvegicus with 6 samples.

Results

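Transcripts of the NOTCH signalling genes were examined in primary smooth muscle cells of rat vessels, which contract to set vessel width. The genes were 10 members chosen by symbol: the receptors Notch1, Notch2 and Notch3, the ligands Jag1, Jag2 and Dll4, and the target genes Hes1, Hey1, Hey2 and Heyl. They are 10 of the 30945 genes listed. RNA sequencing covered 3 libraries labelled siRNA_ANK and 3 labelled Negative_control, and the study compared the first with the second. The labels give no strain, age, vessel, culture time or siRNA dose, and do not tie replicates to separate animals or cultures; the p-values therefore cover the spread among these libraries, which may be technical.

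NOTCH receptors are membrane proteins that are activated by ligands of the Jagged and Delta-like families on a neighbouring cell. Binding leads to cleavage by an ADAM protease and by gamma-secretase, which frees the intracellular part of the receptor. This fragment joins the DNA-binding protein RBPJ and coactivators of the MAML family in the nucleus and turns on HES and HEY genes, which encode repressors of the basic helix-loop-helix class. In the vessel wall NOTCH3 is the receptor typical of smooth muscle and pericytes, JAG1 is present on endothelium and smooth muscle, and DLL4 is mainly endothelial.

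The promoters of the target genes are shown because these genes rose together in siRNA_ANK cells. Each window holds 250 bases before and 50 bases after the RefSeq gene start on build GRCr8, 5′ to 3′ on the gene's strand, and capitals mark the RBPJ core motif TGGGAA on either strand (TTCCCA where it lies on the opposite one). The windows are chr11:84212996-84213295 on the minus strand for Hes1, chr1:28640850-28641149 on the plus strand for Hey2 and chr5:140793021-140793320 on the plus strand for Heyl.
Hes1: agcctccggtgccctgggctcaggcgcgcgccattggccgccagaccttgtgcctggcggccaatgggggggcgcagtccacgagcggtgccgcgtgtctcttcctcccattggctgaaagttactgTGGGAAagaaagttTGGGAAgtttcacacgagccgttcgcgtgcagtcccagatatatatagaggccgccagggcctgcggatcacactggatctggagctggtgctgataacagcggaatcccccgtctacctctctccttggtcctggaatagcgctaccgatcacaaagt
Hey2: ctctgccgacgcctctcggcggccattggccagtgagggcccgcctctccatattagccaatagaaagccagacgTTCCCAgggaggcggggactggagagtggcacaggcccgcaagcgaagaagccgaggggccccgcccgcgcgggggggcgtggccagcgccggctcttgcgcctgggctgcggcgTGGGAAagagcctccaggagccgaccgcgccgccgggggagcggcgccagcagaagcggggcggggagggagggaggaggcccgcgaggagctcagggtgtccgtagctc
Heyl: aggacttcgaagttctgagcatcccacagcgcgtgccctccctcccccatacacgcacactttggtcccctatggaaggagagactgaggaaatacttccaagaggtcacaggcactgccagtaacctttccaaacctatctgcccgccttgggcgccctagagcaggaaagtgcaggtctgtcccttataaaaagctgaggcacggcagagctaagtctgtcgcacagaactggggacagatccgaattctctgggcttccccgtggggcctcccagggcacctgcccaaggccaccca

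The Hes1 window held 2 copies of the motif, both on the gene's strand, starting at -123 and -109 relative to the gene start. The Hey2 window also held 2 copies, 1 on the opposite strand starting at -175 and 1 on the gene's strand starting at -60. The letters were not found in the Heyl window. Among the other members with a window, Notch3 held 1 copy, starting at 43 after the gene start, and the windows of Notch1, Notch2, Jag1 and Jag2 held none. Of all 33469 promoter windows of this length, 25.7% held at least 1 copy and 3.85% at least 2. A match is a run of letters and not a measured site. In all, 8 of the 10 members matched a window; Hey1 and Dll4 are named only.

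Library totals ranged from 15641259 to 17441548 counts. Ankh, which encodes the pyrophosphate transporter also known as ANK, was lower in siRNA_ANK cells, with 84.8, 76.6 and 120 CPM, against 338, 351 and 367 CPM in Negative_control cells (CPM, counts as a share of the library scaled by TMM factors). The smooth muscle label was checked with 8 markers. They summed to between 5151 and 6169 CPM in siRNA_ANK and between 2593 and 3605 CPM in Negative_control libraries. Of the 8, 7 rose, where 19.9% of all genes tested rose and 20.2% fell at an edgeR adjusted p under 0.05. Of 9 endothelial markers, Cdh5, Tie1, Kdr and Emcn were at 0 counts in all 6 libraries. Of 3 tested, 1 fell: Egfl7, at a mean of 5.99 CPM in siRNA_ANK and 11.3 CPM in Negative_control. Tek and Esam were not called. Pecam1 and Vwf were not tested, with 4 and 15 counts in siRNA_ANK and 1 and 3 in Negative_control libraries. The list summed to between 6.71 and 9.24 CPM in siRNA_ANK, against 11.6 to 14.8 CPM in Negative_control. Of 7 leukocyte markers none was tested, Ptprc was at 0 in all 6 libraries, and the list summed to between 0.569 and 1.2 CPM in siRNA_ANK and between 0.843 and 1.12 CPM in Negative_control. Of 8 adventitial fibroblast markers, 7 were tested, and 5 rose and 1 fell. The 8 summed to between 234 and 247 CPM in siRNA_ANK, against 176 to 193 CPM in Negative_control. The part of these markers in the NOTCH results was not tested. In bulk RNA, fewer cells of a type and less RNA per cell cannot be told apart.

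Most of the NOTCH genes that were detected rose in siRNA_ANK cells. The receptor Notch3, the ligand Jag1 and the targets Hey1 and Heyl rose by 3-fold or more, Hes1 and Hey2 rose 1.57-fold and 1.61-fold, Notch1 rose 1.42-fold, and Notch2 was not called. Of the 10 members, 8 passed the filter on low counts, each with at least 11 counts in every library. At an adjusted p under 0.05 in edgeR's quasi-likelihood test, 7 of these 8 were higher and 0 lower, where 40.1% of the 13016 genes tested were called, 19.9% higher and 20.2% lower. At an unadjusted p under 0.05 the number lower was also 0, and DESeq2 and limma-voom called 0 members lower too. At least 2-fold rises were called for 4 of the 8, against 4.56% of all genes tested, and the groups were fully separated, with siRNA_ANK higher, for 6 of the 8, against 25.7% of all genes tested (51.1% in either direction). The median log2 fold change was 1.17 over the 8 tested members and 0.01 over all genes tested. The members were chosen with earlier results of these data known, so these contrasts with all genes are a description.

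**Figure D1:**
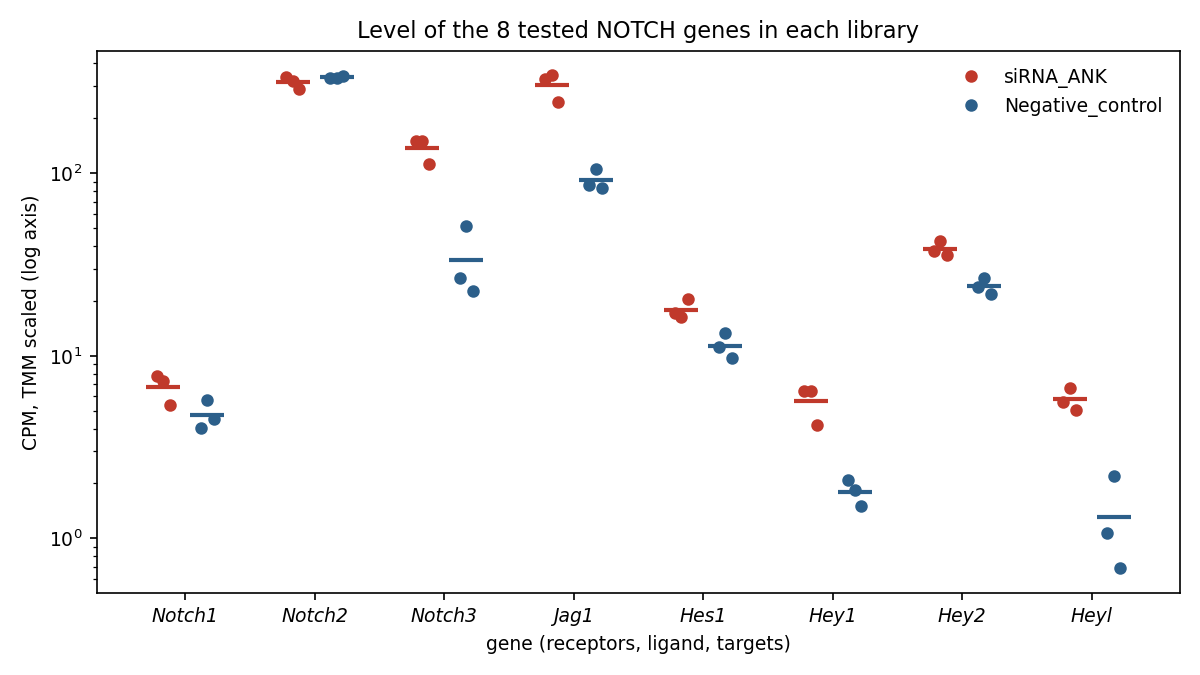
CPM of the 8 tested genes in each of the 6 libraries on a log axis, with siRNA_ANK points left of Negative_control points and a line at each group's mean. The 3 siRNA_ANK values of Notch3 (112 to 151 CPM) lie above the 3 control values (22.8 to 51.2 CPM), while those of Notch2 overlap.

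Notch3 was the receptor that changed most. Its level was 151, 151 and 112 CPM in siRNA_ANK cells, against 26.7, 51.2 and 22.8 CPM in Negative_control cells. All 3 siRNA_ANK values lay above all 3 control values, and Negative_control replicate 2 was the highest of the controls. The means were 138 ± 22.6 and 33.6 ± 15.4 CPM (SD, n = 3 each), which is 4.10-fold higher in siRNA_ANK cells, or 2.04 ± 0.37 on the log2 scale (SE; edgeR adjusted p = 0.0134). The call was lost without Negative_control replicate 1 (1.89, adjusted p = 0.0522) or siRNA_ANK replicate 2 (1.96, adjusted p = 0.0531), and the log2 fold change was 2.47 ± 0.16 without Negative_control replicate 2. Notch3 (ENSRNOG00000004346, chromosome 7, 11133706 to 11184025 on the minus strand of mRatBN7.2) is overlapped on the other strand by 1 gene, which had 0 counts in all 6 libraries.

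Notch2, which is expressed in smooth muscle beside Notch3 (ENSRNOG00000018835, chromosome 2, 185610589 to 185744088, plus strand), was the most abundant receptor in both groups. It measured 336, 321 and 288 CPM in siRNA_ANK cells and 334, 333 and 343 CPM in Negative_control cells. The groups overlapped, and the log2 fold change of -0.09 ± 0.06 was not called (edgeR adjusted p = 0.237), with a 95% interval from -0.22 to 0.04. Notch1, the receptor best known from endothelium and lymphocytes (ENSRNOG00000019322, chromosome 3, 9278086 to 9323531, minus strand), was low. It was at 7.73, 7.24 and 5.38 CPM in siRNA_ANK cells, against 4.05, 5.75 and 4.49 CPM in Negative_control cells. The lowest siRNA_ANK value lay below the highest control value. Its log2 fold change of 0.51 ± 0.19 was called (edgeR adjusted p = 0.0406), but the call was lost without Negative_control replicate 1 or 3 or siRNA_ANK replicate 1 or 2 (adjusted p = 0.164, 0.116, 0.170 and 0.108) and with DESeq2 (adjusted p = 0.0565).

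The make-up of the receptor transcripts differed between the groups. Per transcript length, in TPM, the 3 receptors summed to 139, 135 and 110 in siRNA_ANK libraries and to 90.3, 100 and 92.9 in Negative_control libraries. Notch3 held 41.4%, 42.5% and 38.0% of this sum in siRNA_ANK cells, against 11.3%, 19.6% and 9.57% in Negative_control cells. In TPM, the ratio of Notch3 to Notch2 averaged 0.704 ± 0.0691 in siRNA_ANK cells and 0.162 ± 0.0759 in Negative_control cells (SD, n = 3 each). The groups did not overlap in any of these values. The sum and the share each gave p = 0.1 in an exact two-sided permutation test (Benjamini-Hochberg adjusted p = 0.125 over 5 such measures), which is the smallest p that 3 against 3 libraries allow.

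Jag1 accounted for nearly all transcripts of the 3 member ligands. This gene (ENSRNOG00000007443, chromosome 3, 124406794 to 124442209, minus strand) encodes Jagged1, a membrane ligand of the NOTCH receptors. It measured 328, 344 and 245 CPM in siRNA_ANK cells and 86.1, 106 and 82.8 CPM in Negative_control cells. The lowest siRNA_ANK value was above the highest control value. This is 3.33-fold higher in siRNA_ANK cells, or 1.74 ± 0.16 on the log2 scale (SE; edgeR adjusted p = 0.000207), and it stayed called when any single library was left out, between 1.64 and 1.87. In TPM, Jag1 held between 99.9% and 100% of the summed level of Jag1, Jag2 and Dll4 in each library. The ligands outside the members were not in this sum.

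The other ligands were at or near 0. Jag2, a Jagged ligand with a role in limb and thymus development, had 1, 3 and 4 counts in siRNA_ANK libraries and 1, 1 and 0 in Negative_control libraries, and did not pass the filter. Over the groups this is 8 against 2 counts, a ratio per total count of 4.01 with an exact 95% interval from 0.801 to 38.8, which covers counting error only. Dll4, the endothelial Delta-like ligand, had 0 counts in all 6 libraries, which allows up to 3 counts, or 0.172 to 0.192 unscaled CPM, in a library.

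All 4 target genes rose, with log2 fold changes between 0.65 and 2.12. Heyl, a HEY repressor known in mouse to respond to NOTCH3 in smooth muscle, was at 5.57, 6.70 and 5.06 CPM in siRNA_ANK cells, against 1.07, 2.19 and 0.687 CPM in Negative_control cells. Hey1, a HEY repressor of cardiac and vascular development, was at 6.41, 6.46 and 4.18 CPM in siRNA_ANK cells, against 2.08, 1.84 and 1.5 CPM in Negative_control cells. For both genes the groups did not overlap. Heyl (ENSRNOG00000015318, chromosome 5, 135508160 to 135525152, plus strand) had a log2 fold change of 2.12 ± 0.30 (edgeR adjusted p = 8.36e-05), and Hey1 (ENSRNOG00000062882, chromosome 2, 93095498 to 93100312, plus strand) one of 1.65 ± 0.23 (edgeR adjusted p = 5.55e-05). Both are low genes, with 285 and 281 counts over the siRNA_ANK libraries and 68 and 93 over the controls. Neither was tested when genes under a mean of 5 CPM were left out.

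Hey2, the HEY repressor of arterial identity and the most abundant of the 4 targets, measured 37.7, 42.6 and 35.9 CPM in siRNA_ANK cells and 23.8, 26.6 and 21.8 CPM in Negative_control cells. Hes1, a target of NOTCH in many tissues, measured 17.1, 16.3 and 20.4 CPM in siRNA_ANK cells and 11.2, 13.3 and 9.68 CPM in Negative_control cells. The groups did not overlap for either gene. The log2 fold changes were 0.68 ± 0.09 for Hey2 (ENSRNOG00000013364, chromosome 1, 26822131 to 26832218, plus strand; edgeR adjusted p = 3.90e-05) and 0.65 ± 0.13 for Hes1 (ENSRNOG00000001720, chromosome 11, 70705764 to 70708192, minus strand; edgeR adjusted p = 0.00104). All 4 targets stayed called when any single library was left out.

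Hey1 and Heyl were minor parts of the target transcripts in both groups. In TPM, Hey2 held 50.8 ± 3.61% and Hes1 39.9 ± 5.15% of the sum of the 4 targets in siRNA_ANK cells, against 53.2 ± 1.7% and 42.4 ± 1.13% in Negative_control cells (SD, n = 3 each). Hey1 held 5.39 ± 1.24% in siRNA_ANK cells and 2.88 ± 0.409% in Negative_control cells. Heyl held 3.94 ± 0.494% in siRNA_ANK cells and 1.45 ± 0.675% in Negative_control cells. The TPM ratio of Heyl to Hes1 was 0.1, 0.126 and 0.0762 in siRNA_ANK cells, against 0.0293, 0.0505 and 0.0218 in Negative_control cells, without overlap. The ratio of Hey2 to Hes1 averaged 1.30 ± 0.253 in siRNA_ANK cells and 1.26 ± 0.0730 in Negative_control cells, a difference within the spread of the replicates. The ratio of Heyl to Notch3 was 0.0667 ± 0.00724 in siRNA_ANK cells and 0.0594 ± 0.0105 in Negative_control cells. These ratios are given as a description, with no test.

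**Figure D2:**
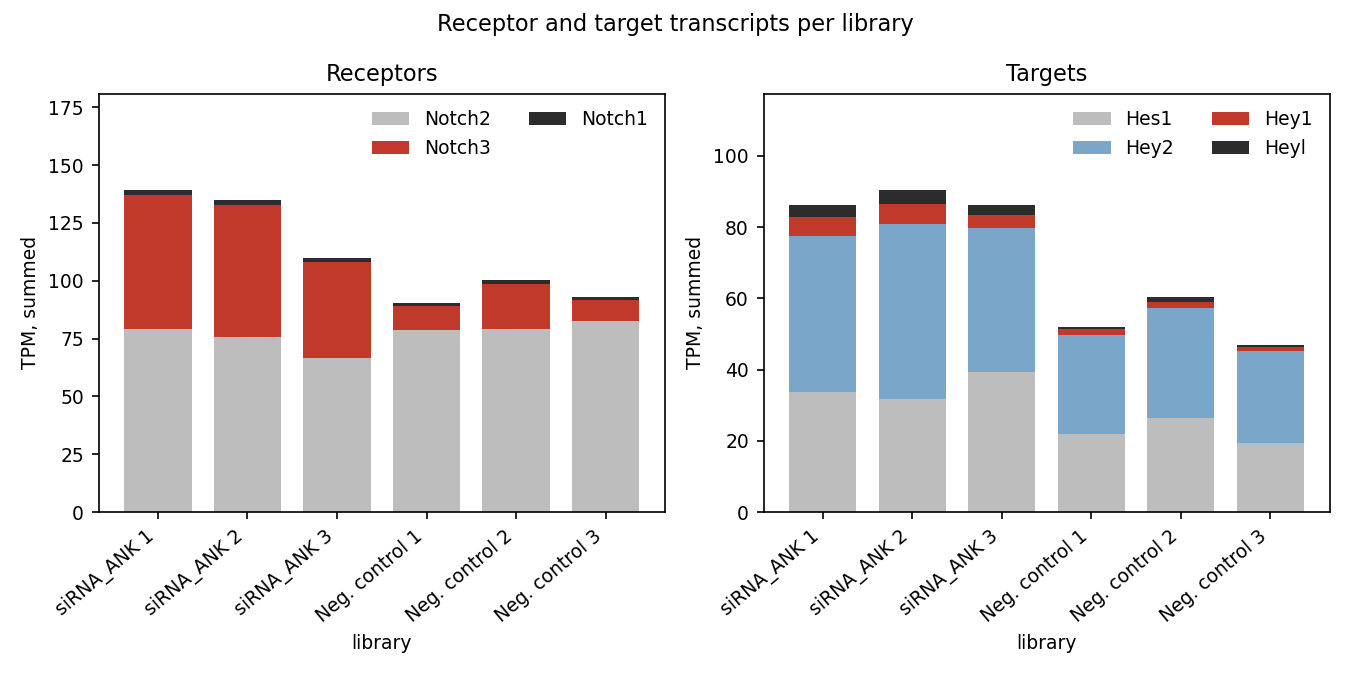
Summed TPM per library of the 3 receptors (left) and the 4 targets (right), with a colour for each gene. The Notch3 part of the receptor bar is larger in each siRNA_ANK library (38.0% to 42.5%) than in each Negative_control library (9.57% to 19.6%), and Hey2 and Hes1 make up most of every target bar.

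Ordered by level per length, Jag1 came first in siRNA_ANK cells at 152 ± 27.8 TPM (SD, n = 3), above Notch2 at 73.8 ± 6.49, Notch3 at 52.2 ± 9.06, Hey2 at 44.6 ± 4.28, Hes1 at 34.9 ± 3.85, Hey1 at 4.73 ± 1.13, Heyl at 3.46 ± 0.524 and Notch1 at 1.99 ± 0.384. Among neighbours in this order, the values of Notch3 and Hey2 overlapped across libraries, and so did those of Hey1 and Heyl. Within every siRNA_ANK library, though, Notch3 was above Hey2 and Hey1 above Heyl. In Negative_control cells Notch2 came first at 80.2 ± 2.14 TPM, above Jag1 at 46.3 ± 6.27, Hey2 at 28.2 ± 2.68, Hes1 at 22.6 ± 3.47, Notch3 at 12.9 ± 5.85, Hey1 at 1.53 ± 0.234, Notch1 at 1.42 ± 0.262 and Heyl at 0.797 ± 0.470. There the values of Hey2 and Hes1, of Hes1 and Notch3, of Hey1 and Notch1, and of Notch1 and Heyl overlapped across libraries. Within every Negative_control library Hey2 was above Hes1, Hes1 above Notch3 and Notch1 above Heyl, while the order of Hey1 and Notch1 varied. Among all genes tested, the mean TPM of Jag1 stood above 92.4% in siRNA_ANK cells and 72.0% in Negative_control cells, and that of Notch3 above 75.8% in siRNA_ANK cells and 39.4% in Negative_control cells.

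The libraries of a group also differed from each other in the members. On the first principal component of all genes tested, which held 72.3% of the variance, siRNA_ANK replicate 3 and Negative_control replicate 2 were the libraries nearest to the other group. Of the 7 members that rose, 6 were lowest in siRNA_ANK replicate 3 among the siRNA_ANK libraries, where this held for 60.9% of all genes that rose. Likewise 6 of the 7 were highest in Negative_control replicate 2 among the controls, against 58.6% of all genes that rose. The exceptions were Hes1, which was highest in siRNA_ANK replicate 3, and Hey1, which was highest in Negative_control replicate 1. The smooth muscle markers Acta2 and Myh11 had the same order, at 2608 and 579 CPM in siRNA_ANK replicate 3, against 1657 and 343 CPM in Negative_control replicate 2. With both libraries left out, which was decided after the data had been seen, the log2 fold changes were 2.60 for Notch3, 1.99 for Jag1, 2.78 for Heyl, 1.83 for Hey1, 0.81 for Hey2, 0.67 for Hes1, 0.81 for Notch1 and -0.04 for Notch2, and 7 members were higher and 0 lower.

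**Figure D3:**
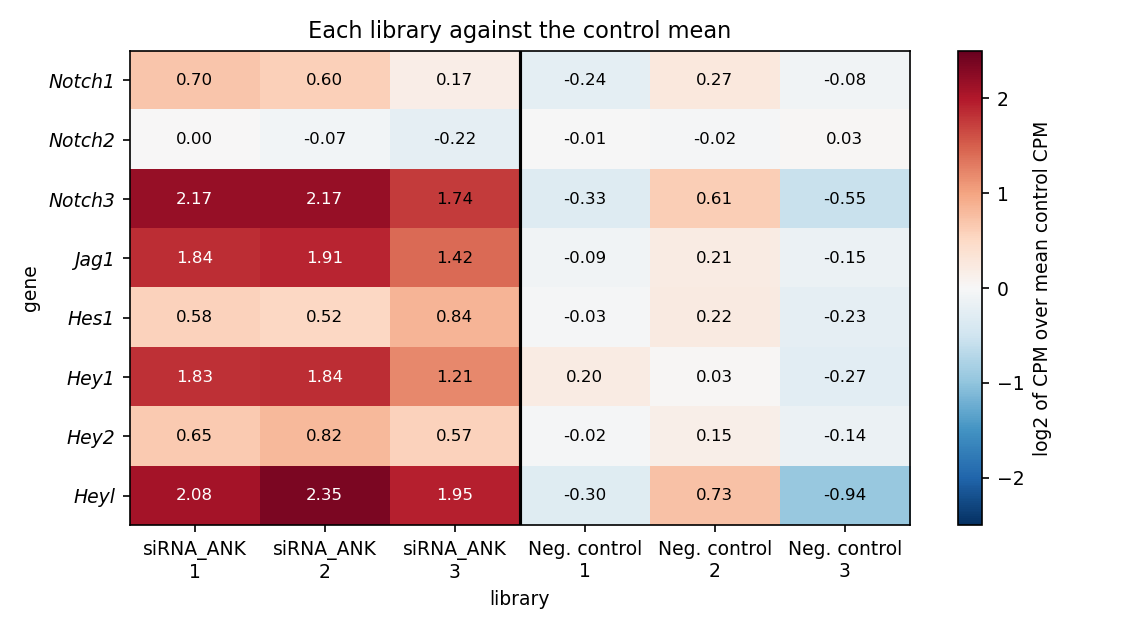
Log2 of each library's CPM over the mean of the 3 Negative_control libraries for the 8 tested genes, with siRNA_ANK libraries left of the line. Notch3 stands at 2.17, 2.17 and 1.74 in siRNA_ANK libraries, and at -0.33, 0.61 and -0.55 in Negative_control libraries.

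The genes whose log2 CPM followed Jag1 most closely over the 6 libraries were Hexa, Gucy1a1 and Fgfr2, with Pearson r of 0.9998, 0.9994 and 0.9993. Hexa encodes a lysosomal hexosaminidase subunit, Gucy1a1 a subunit of the nitric oxide receptor guanylate cyclase, and Fgfr2 a fibroblast growth factor receptor. Gucy1a1 was at 17.1, 17.2 and 12.0 CPM in siRNA_ANK cells, against 3.09, 4.26 and 3.12 CPM in Negative_control cells. Pearson r does not measure the size of a change. The log2 fold changes were 0.22 for Hexa, 2.14 for Gucy1a1 and 1.31 for Fgfr2, against 1.74 for Jag1. For Heyl the closest were Tob2, Tpm2 and Golim4, with r of 0.9988, 0.9980 and 0.9971. Tpm2 encodes the muscle protein beta-tropomyosin. The log2 fold changes were 0.18 for Tob2, 0.50 for Tpm2 and 0.36 for Golim4, against 2.12 for Heyl. Of the members, Notch3 was the closest to Heyl (r = 0.9924) and Hey2 the closest to Jag1 (r = 0.9855). The libraries share the group difference, and r was over 0.95 with Jag1 for 1109 of 11150 genes (9.95%) and with Heyl for 648 (5.81%), so these values are a description.

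Of 71 other genes of the pathway listed by role, 59 were tested, and 21 rose and 11 fell, with a median log2 fold change of 0.11. These are 35.6% and 18.6% of those tested, against 19.9% higher and 20.2% lower among all genes tested, so the share that fell was near the background. Of the 21 that rose, Grip2 passed the filter on low counts only through the siRNA_ANK libraries. The list was chosen with earlier results of these data known, so these shares are a description. Leaving aside the smooth muscle genes linked to NOTCH, Grip2 among them, 15 of 50 rose (30%) and 10 fell (20%). Their median log2 fold change was 0.04. When single libraries were left out, 18 of the 32 calls stayed in all 6 cases, that of Grip2 among them. Without Negative_control replicate 1 or siRNA_ANK replicate 1, 13 genes rose, and 7 fell without Negative_control replicate 1 or 3 or siRNA_ANK replicate 2.

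**Figure D4:**
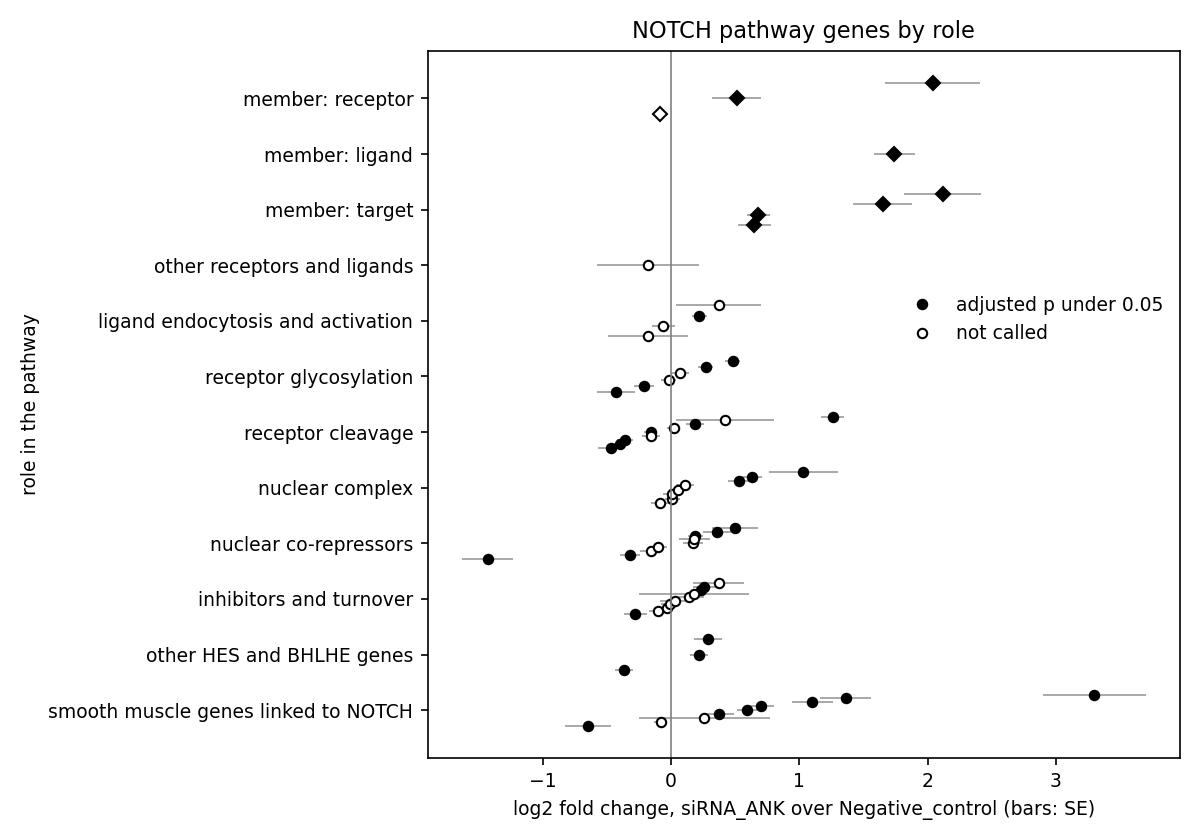
Log2 fold change of siRNA_ANK over Negative_control for every tested NOTCH gene by role, with SE bars; diamonds are members, circles the other pathway genes, and filled marks have an adjusted p under 0.05. Except for Notch2 at -0.09 the members lie right of 0, while the cleavage enzymes lie on both sides, from Psenen at -0.47 to Psen2 at 1.26.

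Among the other receptors and ligands, Notch4, an endothelial receptor, was at 0.868 ± 0.266 CPM in siRNA_ANK cells and 0.983 ± 0.431 CPM in Negative_control cells (SD, n = 3 each) and was not called. Dlk2, a non-canonical ligand, was at 0.550 ± 0.115 CPM in siRNA_ANK cells and 0.308 ± 0.173 CPM in Negative_control cells and was not tested. Of the ubiquitin ligases that act on ligands, 1 of 4 tested rose (25%), where 19.9% of all genes tested rose. It was Mib2, with a log2 fold change of 0.22 (edgeR adjusted p = 0.0126). This call was lost without Negative_control replicate 1 (adjusted p = 0.0832).

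Of 6 enzymes of receptor glycosylation, 2 rose and 2 fell (33.3% each), against 19.9% and 20.2% of all genes tested. The glucosyltransferases Poglut3 and Poglut1, which add sugars to the EGF repeats, had log2 fold changes of 0.48 and 0.27 (edgeR adjusted p = 1.32e-05 and 0.00275). The Fringe enzymes Lfng and Rfng, which extend fucose on those repeats and alter the response to ligands, were at -0.43 and -0.21 (edgeR adjusted p = 0.0327 and 0.0384). Lfng kept its call only without Negative_control replicate 1 or siRNA_ANK replicate 3, and Rfng only without siRNA_ANK replicate 3, with adjusted p up to 0.117 and 0.111 in the other cases.

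Of 9 genes of receptor cleavage, 2 rose (22.2%) and 4 fell (44.4%), against 19.9% and 20.2% of all genes tested. Psen2, a catalytic subunit of gamma-secretase, was at 53.1 ± 1.56 CPM in siRNA_ANK cells and 22.1 ± 2.65 CPM in Negative_control cells (SD, n = 3 each; log2 fold change 1.26 ± 0.09, edgeR adjusted p = 5.65e-08). The groups did not overlap. Other parts of the machinery fell. The gamma-secretase subunits Aph1a and Psenen had log2 fold changes of -0.36 and -0.47 (edgeR adjusted p = 0.000159 and 0.00238). Adam10, a protease of the first cleavage after ligand binding, was at -0.40 (edgeR adjusted p = 0.000709). The calls of Psen2, Aph1a, Psenen and Adam10 stayed when any single library was left out. Those of Adam17 (higher) and Furin (lower), named after their values had been seen, were lost in some cases (edgeR adjusted p up to 0.141 and 0.118).

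Of 8 genes of the nuclear complex, 3 rose (37.5%) and 0 fell, against 19.9% and 20.2% of all genes tested. The acetyltransferase gene Kat2a had a log2 fold change of 0.63 and the coactivator genes Maml2 and Maml3 of 0.53 and 1.03 (edgeR adjusted p = 1.57e-05, 0.000319 and 0.00744). The DNA-binding partner Rbpj, named after its values had been seen, was at 116 ± 4.62 CPM in siRNA_ANK cells and 115 ± 3.53 CPM in Negative_control cells and was not called. Of 9 co-repressor genes, 3 rose (33.3%) and 2 fell (22.2%), against the same shares of all genes. Tle2 and Tle1, Groucho-type co-repressors, had log2 fold changes of -1.43 and -0.32 (edgeR adjusted p = 6.94e-05 and 0.00381). Tle2 was at 1.95 ± 0.390 CPM in siRNA_ANK cells and 5.27 ± 0.413 CPM in Negative_control cells. Tle4, named after its values had been seen, was at 0.50. It kept its call only without siRNA_ANK replicate 3, with edgeR adjusted p up to 0.192 in the other cases. The deacetylase gene Hdac1 and Cir1, which links RBPJ to deacetylases, were at 0.19 and 0.36. Hdac1 lost its call without Negative_control replicate 1 or 3 or siRNA_ANK replicate 1 (adjusted p up to 0.0731), and Cir1 without Negative_control replicate 2 or siRNA_ANK replicate 1 (adjusted p up to 0.0601).

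Of 10 inhibitors and turnover factors, 2 rose (20%) and 1 fell (10%), against 19.9% and 20.2% of all genes tested. The share that rose was near the background. The ubiquitin ligase gene Nedd4 was at 1847 ± 16.6 CPM in siRNA_ANK cells and 1579 ± 29.3 CPM in Negative_control cells (SD, n = 3 each; log2 fold change 0.23, edgeR adjusted p = 0.00170). Numb, an endocytic inhibitor of NOTCH, and Dtx4, a ubiquitin ligase of the Deltex family, were at 0.26 and -0.28 (edgeR adjusted p = 0.0281 and 0.0284). Numb lost its call without replicate 1 or 2 of either group (adjusted p up to 0.144), and Dtx4 without Negative_control replicate 1 or 2 or siRNA_ANK replicate 2 (up to 0.137). Nrarp, a direct NOTCH target that limits the pathway, was named after its values had been seen. It had 16, 13 and 7 counts in siRNA_ANK libraries and 10, 16 and 7 in Negative_control libraries, and was not called.

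Among the other HES genes and the related repressors of the BHLHE family, 3 were tested and 5 were not. The clock-linked repressor Bhlhe40 fell, with 206 ± 18.7 CPM in siRNA_ANK cells and 266 ± 8 CPM in Negative_control cells (SD, n = 3 each; log2 fold change -0.37, edgeR adjusted p = 0.000375). Bhlhe41 and Hes6 had log2 fold changes of 0.22 and 0.29 (edgeR adjusted p = 0.0251 and 0.0491). Bhlhe41 kept its call only without siRNA_ANK replicate 3, and Hes6 only without that library or Negative_control replicate 2, with adjusted p up to 0.125 and 0.222 in the other cases. Hes5, a target of NOTCH in neural cells, had 2 counts in siRNA_ANK libraries and 0 in Negative_control libraries.

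Of 9 smooth muscle genes that have been linked to NOTCH signalling, 6 rose (66.7%) and 1 fell (11.1%), against 19.9% and 20.2% of all genes tested. Their median log2 fold change was 0.59. Acta2, Myh11, Tagln, Cnn1 and Smtn are also among the smooth muscle markers above, so their rise is counted in both lists. Grip2, a scaffold protein, was at 4.37, 4.13 and 3.23 CPM in siRNA_ANK cells, against 0.169, 0.806 and 0.187 CPM in Negative_control cells. It had 73, 69 and 51 counts in siRNA_ANK libraries and 3, 14 and 3 in Negative_control libraries, so it passed the filter on low counts only through the siRNA_ANK libraries; it is one of the 6 counted as higher, and its values are given as a description, with no test. The contractile genes Acta2, Smtn and Tagln had log2 fold changes of 1.10, 0.70 and 0.59 (edgeR adjusted p = 0.00203, 0.000379 and 0.000190). Myh11 and Cnn1, named after their values had been seen, were at 1.36 and 0.37 (edgeR adjusted p = 0.00362 and 0.0339). The Cnn1 call stayed only without Negative_control replicate 2, with adjusted p up to 0.163 in the other cases. The member of the list that fell, Nrip2, a nuclear receptor-interacting protein, was named after its values had been seen. It was at 26.2, 20.2 and 35.4 CPM in siRNA_ANK cells, against 45.3, 39.5 and 43.9 CPM in Negative_control cells (log2 fold change -0.65 ± 0.18, edgeR adjusted p = 0.0253), and its call was lost without Negative_control replicate 1 or 3 or siRNA_ANK replicate 1 (adjusted p up to 0.0704). Pdgfrb, a growth factor receptor of mural cells, also named after its values had been seen, was at 2524 ± 49.4 CPM in siRNA_ANK cells and 2670 ± 61.2 CPM in Negative_control cells and was not called.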

How the data were processed

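The files deposited by the authors hold raw whole-number counts per gene, 1 file per library, with Ensembl identifiers, symbols, lengths and coordinates. The submitters' processing notes name DESeq2, featureCounts 1.5.0-p3 and build mRatBN7.2; for the aligner, strand setting and read filters, the method is not given in the sources used here, so overlapping genes cannot be told apart by strand. Rows without symbol or Ensembl identifier held 0.306% to 0.339% of counts and were kept as genes.

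The whole table was fitted in edgeR 4.0.16 (R 4.3.3): filterByExpr (minimum count 10, minimum total 15; 13016 genes), TMM scaling (factors 0.979 to 1.02), the robust quasi-likelihood test of siRNA_ANK over Negative_control without covariates, and Benjamini-Hochberg adjustment over all genes tested, with calls at an adjusted p under 0.05. The SE is the log2 fold change over the square root of F. TPM was computed from the files' gene lengths without TMM. For a symbol on more than 1 row (Ep300) the row with more counts was used. Replicate pairs differed by more than sampling noise (chi-square per degree of freedom 2.83 to 12.3). The edgeR fit was tested on simulated counts with the same dispersion for every gene. That test does not cover genes whose replicates differ more.

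The members and lists were chosen with earlier results of these data known. Named were all members, Ankh, up to 4 called genes per role by adjusted p (otherwise the 2 most abundant), and the 3 genes nearest to Jag1 and to Heyl by Pearson r among genes averaging 2 CPM or more. Alternatives were DESeq2 1.42.0, limma-voom (limma 3.58.1), DESeq2 size factors, upper quartile scaling, other filters, a replicate block, a test against a fold of 1.2, CPM sums and leaving out libraries. Promoter windows came from RefSeq (GRCr8), matched by symbol; no coordinate was converted between builds.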

Additional observations from a re-analysis of the deposited data

How the results depend on the processing

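The counts of members (7 higher, 0 lower) ranged from 5 to 7 higher, with 0 lower, under the 15 alternatives; 5 were higher without Negative_control replicate 1 and without siRNA_ANK replicate 2, where the Notch1 and Notch3 calls were lost, and 5 when genes under a mean of 5 CPM were left out, where Hey1 and Heyl were not tested. No member's log2 fold change reversed. Jag1, Hes1 and Hey2 stayed called under all 15 alternatives, and Hey1 and Heyl under the 14 that tested them. The Notch1 call was also lost in the test against a fold of 1.2 (adjusted p = 0.162). In that test, which by construction asks for larger changes, 1335 genes in all were higher and 1142 lower, against 2594 and 2629 in the main comparison, and 10 other pathway genes were higher and 2 lower, against 21 and 11. Leaving out single libraries gave 13 to 22 pathway genes higher and 7 to 11 lower, and leaving out both Negative_control replicate 2 and siRNA_ANK replicate 3 gave 24 and 9. The share of Jag1 in the sum of Jag1, Jag2 and Dll4 differed by -0.0189 percentage points. Without single libraries the difference ranged from -0.0396 to 0.00475. It turned to 0.00188 without Negative_control replicate 3 and to 0.00475 without siRNA_ANK replicate 3. This difference rests on the 10 counts of Jag2. Correlations of same-numbered deviations were -0.0274, 0.0673 and 0.0459, and not every library correlated best with its own number. With so few libraries these values cannot exclude that replicate numbers pair them. With the replicate block 7 members were higher and 0 lower, 19 pathway genes higher and 11 lower, and no member's call changed. In all, 2578 genes were higher and 2631 lower. The SE went from 0.16 to 0.07 for Jag1 and from 0.37 to 0.23 for Notch3, and stayed at 0.13 for Hes1. The depth limits Jag2, Dll4, Notch4 and Nrarp, each with at most 26 counts in any library.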

Other observations

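Neurl1b, which encodes a ubiquitin ligase that acts on NOTCH ligands, did not pass the filter on low counts and was named after its values had been seen. It had 28, 20 and 7 counts in siRNA_ANK libraries and 4, 7 and 5 counts in Negative_control libraries. The lowest siRNA_ANK count was equal to the highest control count. With no filter beyond 1 count, where 19000 genes were tested, its log2 fold change was 1.80 ± 0.52 (SE, edgeR adjusted p = 0.00318). In that fit 2688 genes in all were higher and 2744 lower. The other pathway genes with counts that did not pass the filter were not called there (edgeR adjusted p from 0.27 to 0.99). These were Dll1, Dll3, Dlk1, Dlk2, Dtx1, Hes2, Hes3, Hes5 and Hes7. Neurl1b was picked by its values, so its p-value is a description.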
